A study of Mus musculus with 32 samples.

Results

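The response of uninjured mouse liver to thyroid hormone was compared between wild-type animals and Thrb knockouts, which lack thyroid hormone receptor beta by their label. The comparison used 16 of the series' 32 liver libraries, those whose titles name oil as the injection, and matched each title to its count column by the animal number in the description. The 16 formed 4 groups of 4 animals: wild type on PBS, wild type on T3, knockout on PBS and knockout on T3. All 4 groups were on a PTU/LID diet, on which mice lose their own thyroid hormone. The T3 groups drank water with 1 µg/ml T3 during the final week, and for the others the labels name PBS and a hypothyroid state. All animals had 9 injections over 4 weeks. Olive oil took the place of carbon tetrachloride (CCl4), which the other 16 animals received at a dose of 0.4 µl/g. Livers were taken 24 hours after the final injection. The labels give neither the strain, nor which part of Thrb was deleted, nor whether the deletion was limited to some cells. The quantity studied was the knockout's log2 T3 response minus the wild type's log2 T3 response. It is called the genotype difference here, and it is lower or higher where the knockout's response was lower or higher than the wild type's.

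T3, the active thyroid hormone, acts mainly through 2 nuclear receptors, TRα and TRβ, which sit on DNA with or without hormone. Hepatocytes carry mostly TRβ, while other cells of the liver and most other tissues rely more on TRα. Without hormone the receptors recruit corepressors and hold many target genes down, so that loss of a receptor can raise a target in a hypothyroid animal and also blunt its rise when hormone returns. In liver, T3 is known for inducing its own deiodinase, fat and cholesterol synthesis, fat burning and mitochondrial genes.

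The 16 libraries held 16985162 to 26118055 counts each, and 15599 of 52636 genes were tested. Replicates of a group correlated at 0.9722 to 0.9884 in log2 CPM (counts scaled to a common library size). The first principal component, with 50.6% of the variance, placed wild-type PBS libraries lowest, knockout PBS libraries next, knockout T3 libraries between and wild-type T3 libraries highest, and no group overlapped another. Summed hepatocyte markers were at 69950 to 100900 CPM in wild type on T3 and at 113000 to 165000 CPM in the other 3 groups, and none of the 5 markers had a called genotype difference. Pancreas and muscle markers were below 1 CPM in sum in each library. In bulk liver, fewer cells of a type and less RNA per cell cannot be told apart.

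Thrb itself (chromosome 14, 17660261 to 18038090, GRCm38) was at 56.9, 62.7, 66.4 and 50.2 CPM in wild type on PBS and at 44, 44.3, 60.6 and 43.2 CPM on T3. Knockout libraries held 30.7, 35.7, 42.6 and 34.6 CPM on PBS and 33.7, 22.7, 32.5 and 29 CPM on T3. All 8 knockout libraries lay below all 8 wild-type ones, but reads of the gene remained in each, and gene counts do not show which exons they came from. The knockout's level was lower by a log2 of -0.70 on T3 (SE 0.21, adjusted p = 0.0207), while the -0.72 on PBS did not pass (SE 0.21, adjusted p = 0.167). Neither genotype showed a called T3 response of Thrb, and its genotype difference was 0.01 (95% interval -0.59 to 0.62). Thra, which encodes TRα, fell with T3 in both genotypes, from 24.0 ± 4.1 to 14.2 ± 2.3 CPM in wild type and from 21.1 ± 5.0 to 13.9 ± 2.0 CPM in the knockout (SD, n = 4). Its genotype difference was 0.16 (95% interval -0.45 to 0.76, adjusted p = 0.785). Thra overlaps Nr1d1 on the opposite strand, and without a known strand setting their reads cannot be told apart.

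At an adjusted p of 0.05 (edgeR's quasi-likelihood test with Benjamini-Hochberg adjustment), 12.2% of all genes tested had a genotype difference, 5.58% higher and 6.64% lower. Counts of calls in the gene lists below are to be read against these shares. Of the 1906 genes called, 1137 differed by a log2 of at least 1, which is 7.29% of all genes tested, 3.88% higher and 3.4% lower. For the single responses the background was 35.3% in wild type (2970 genes rose, 19%, and 2531 fell, 16.2%) and 18.7% in the knockout (1658 rose, 10.6%, and 1265 fell, 8.11%). With scaling by total counts alone these splits were 3427 against 1683 and 1663 against 692. With only the 16 oil libraries in the fit they were 3136 against 3081 and 1815 against 1887, so that the excess of rises in the knockout was lost. The pattern was mostly one of responses that were called in wild type and not in the knockout. In 642 genes T3 raised the level in wild type (median log2 1.08) without a called response in the knockout (median -0.04). In another 699 genes T3 lowered the level in wild type (median -1.38) with no called response in the knockout (median 0.04). A further 103 genes rose in both genotypes with a lower rise in the knockout, and 41 fell in both with a smaller fall in the knockout. These medians describe genes chosen on the same libraries and are no separate support.

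A smaller part of the called genes did not follow that pattern. In 80 genes both responses were called in opposite directions, 47 that rose in wild type and fell in the knockout and 33 that did the reverse. T3 acted by the call only in the knockout in 254 genes, with 199 falls and 55 rises. In 85 genes neither single response was called. Of the 5501 genes called for T3 in wild type, 28.5% had a genotype difference, and the other 3934 did not pass its test. Among those 3934, the risers had a median log2 of 1.08 in wild type and 0.69 in the knockout, and the fallers -0.76 and -0.29.

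**Figure D1:**
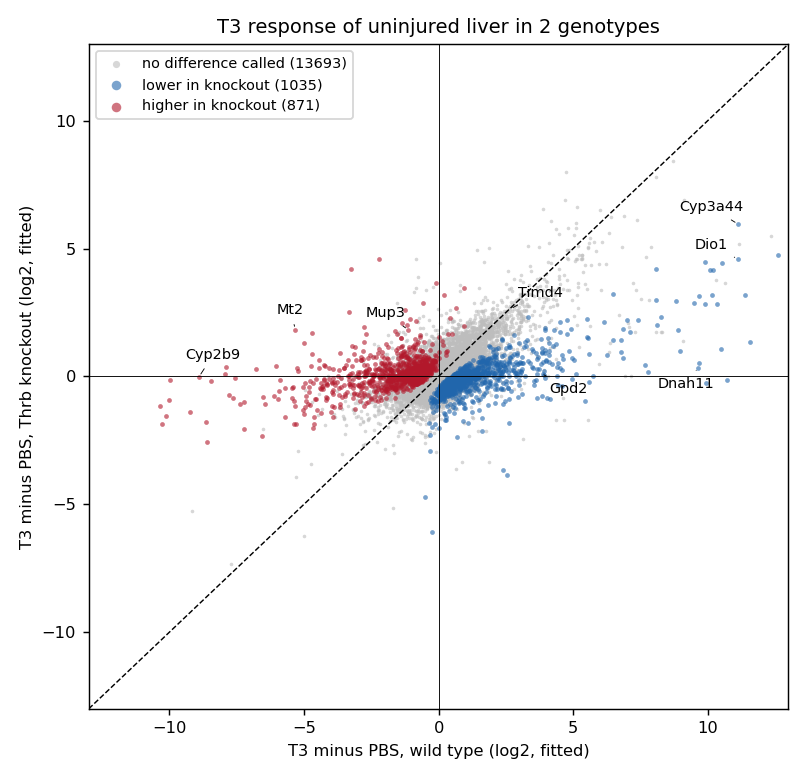
Fitted log2 T3 response of each of 15599 genes in wild type (x axis) and in Thrb knockout (y axis), oil-injected animals, 4 libraries per group; colour gives the call of the genotype difference and the dashed line marks equal responses. Most of the 1035 lower genes lie right of 0 on x and near 0 on y, most of the 871 higher genes lie left of 0 on x and near 0 on y, and Timd4 lies near the dashed line.

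Genes taken as direct or classical T3 targets had the largest share of lower calls among the lists. Of 18 tested targets 10 were lower and none was higher in the knockout, with a median genotype difference of -2.35 against 0.02 for all genes. Their median T3 response was 2.68 in wild type and -0.07 in the knockout, and 11 rose in wild type against 3 in the knockout. The list was drawn up with knowledge of these genes' T3 response and of earlier results of these data, so its direction is no independent evidence.

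Dio1 encodes the type 1 deiodinase, which makes T3 from the prohormone T4. It was at 0.450, 0.658, 0.295 and 0.523 CPM in wild type on PBS and at 1143, 1185, 1084 and 857 CPM on T3. Knockout libraries were at 4.77, 5.61, 4.31 and 4.20 CPM on PBS and at 112, 96.7, 121 and 125 CPM on T3. The 4 groups did not overlap at any point, with the knockout above wild type on PBS and below it on T3. The knockout's own rise was still a log2 of 4.59 (SE 0.33), and the genotype difference was -6.53 (SE 0.48, adjusted p = 2.86e-10).

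Gpd2, the mitochondrial glycerol-3-phosphate dehydrogenase of a shuttle that T3 is known to drive, rose from 7.65, 8.94, 12.3 and 10.2 CPM to 168, 117, 146 and 161 CPM in wild type. In the knockout it was at 41.6, 52.4, 55.1 and 59.5 CPM on PBS and 65.9, 41.3, 54.7 and 55.8 CPM on T3. The knockout groups overlapped each other and lay wholly between the wild-type ones, so that the same genotype difference of -3.85 (SE 0.28) held a PBS level 2.41 higher on the log2 scale (SE 0.20) and no called T3 response. Gpd2 overlaps a gene on the opposite strand, A930012O16Rik. Bcl3, a nuclear partner of NF-kappaB, had the same order: 6.81, 8.01, 8.54 and 7.16 CPM in wild type on PBS, 96.3, 85.9, 77.5 and 94.0 CPM on T3, then 39.5, 19.5, 34.1 and 27.7 CPM and 23.3, 30.6, 24.3 and 27.4 CPM in the knockout. Stim2, a calcium sensor of the endoplasmic reticulum, was not on the target list and is named for its small adjusted p. It rose from 12.5 ± 1.7 to 99.3 ± 19.9 CPM in wild type. In the knockout it was at 22.6 ± 3.0 and 20.6 ± 1.0 CPM on PBS and on T3 (SD, n = 4).

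Other genes that T3 raised in wild type did not differ between the genotypes by the call without hormone. Slc37a3, a transporter linked to bisphosphonate uptake, was not on the target list and is named for its small adjusted p. On PBS it was at 25.6, 26.8, 28.7 and 27.5 CPM in wild type and 30.5, 34, 31.4 and 24.1 CPM in the knockout. It reached 165, 144, 139 and 119 CPM in wild type on T3 and stayed at 33.7, 21.7, 32.7 and 32.4 CPM in the knockout, a difference of -2.38 (SE 0.18). Idh3a, a catalytic subunit of the citrate cycle's isocitrate dehydrogenase, rose 3.02 on the log2 scale in wild type (SE 0.30) and had a response of 0.07 in the knockout (SE 0.28). On PBS it was at 14.8 to 28.1 CPM in wild type and 34.9 to 39.5 CPM in the knockout. These ranges did not overlap, though the log2 difference of 0.72 was not called (SE 0.28, adjusted p = 0.424). Hr, a corepressor that T3 induces, rose in both, from 0.703 ± 0.216 to 32 ± 10.1 CPM in wild type and from 0.590 ± 0.207 to 2.78 ± 0.45 CPM in the knockout (SD, n = 4).

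Dnah11, an axonemal dynein heavy chain, was nearly silent outside wild type on T3. It held 8 reads in all 4 wild-type PBS libraries together and 81.8 to 97.2 CPM in wild type on T3, against 0.148 to 0.878 CPM over all 8 knockout libraries. The genotype difference was -9.31 (SE 0.69, adjusted p = 2.89e-10). It overlaps Cdca7l on the opposite strand. The cilium gene Cep126 and the soluble adenylyl cyclase Adcy10 were of the same kind: on T3 they reached 71.2 ± 23.3 and 24.7 ± 5.8 CPM in wild type and 0.292 ± 0.243 and 0.229 ± 0.127 CPM in the knockout (SD, n = 4). Glod5, of the glyoxalase family, had no read in wild type on PBS, 483 reads in wild type on T3, and 5 and 4 reads in the knockout groups, and the inositol oxygenase Miox had 1, 763, 15 and 30 reads in the same order. A fold against so few reads is not given.

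**Figure D2:**
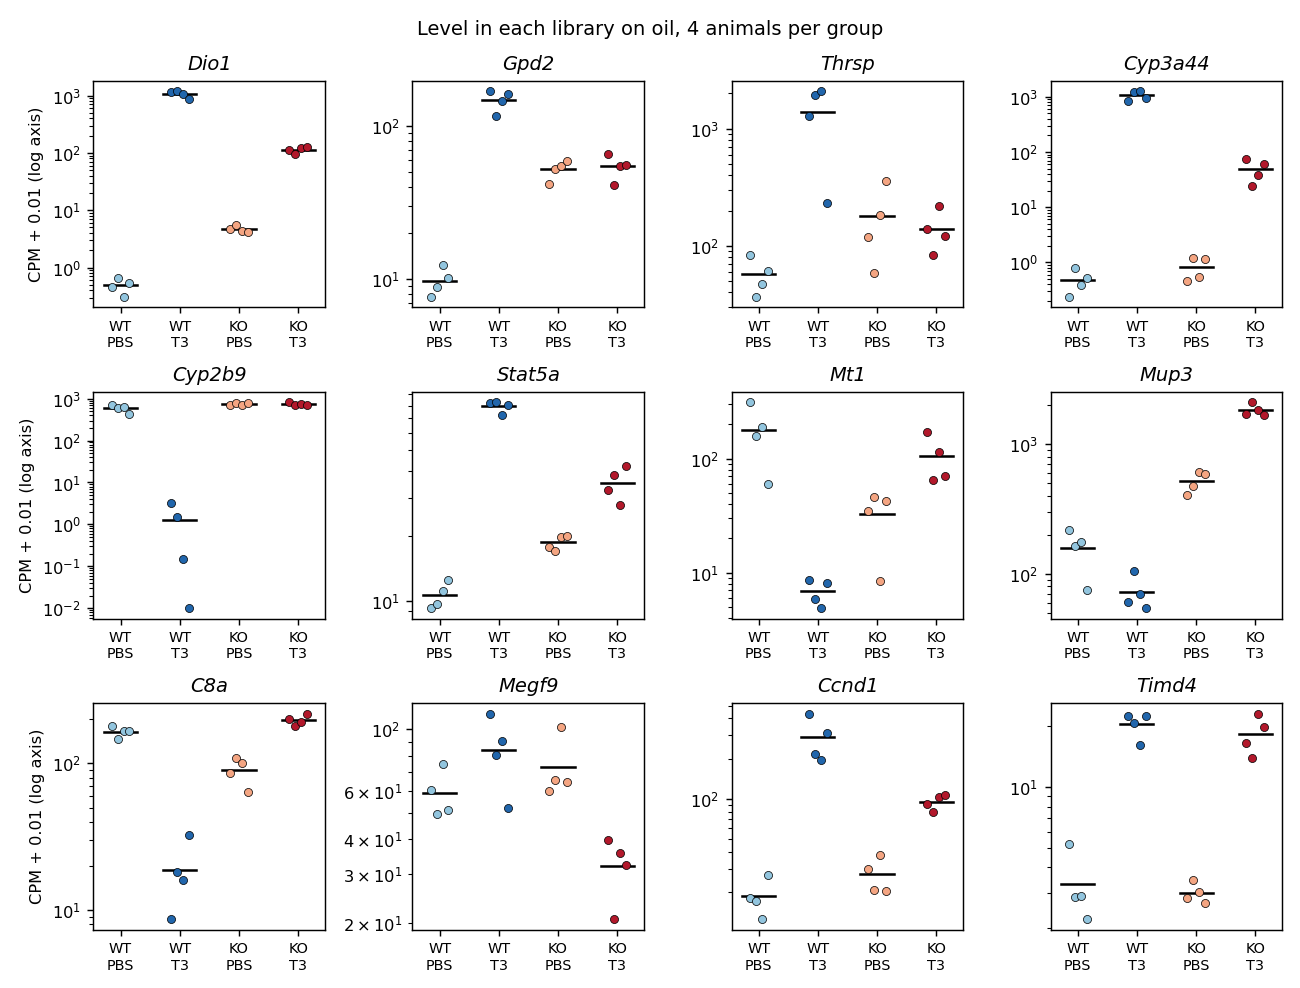
Level of 12 genes in each oil-injected library, as CPM plus 0.01 on a log axis that differs between panels, by genotype and treatment; points are animals and the bar is the mean of 4. Dio1 rises in both genotypes to unequal levels, Gpd2 and Cyp2b9 respond in wild type only by the call, Mt1 and C8a are lower in wild type on T3 and Timd4 reaches like levels on T3 in both genotypes.

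Genes that move, clear or bind thyroid hormone were split. Among 17 tested, 4 were lower and 2 higher. Besides Dio1, the lower ones were the transporters Slc16a10 (MCT10) and Slc7a5 (LAT1) and the bilirubin and thyroxine glucuronidating enzyme Ugt1a1. Slc16a10 rose from 69.8 to 96.8 CPM on PBS to 147 to 258 CPM on T3 in wild type, while knockout libraries were at 108 to 127 CPM and 64.4 to 101 CPM, a difference of -1.83 (SE 0.28). Slc7a5 was low, 2.38 ± 0.32 CPM rising to 10.7 ± 1.8 CPM in wild type, and 4.77 ± 1.63 and 4.39 ± 1.04 CPM in the knockout (SD, n = 4). The call for Ugt1a1 was lost without any 1 of 7 libraries (adjusted p up to 0.0729).

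Serpina7, which encodes thyroxine-binding globulin, a carrier of the hormone in blood, was one of the 2 higher genes. It was at 303, 768, 669 and 428 CPM in wild type on PBS and 2.12, 1.06, 0.874 and 1.45 CPM on T3. In the knockout it was at 112, 647, 393 and 51.3 CPM on PBS and 42.6, 47.6, 76.8 and 34.3 CPM on T3, so that the knockout groups overlapped while the wild-type ones did not. Both genotypes had a called fall, -8.62 (SE 0.81) and -2.58 (SE 0.60), and the difference was 6.04 (SE 0.90, adjusted p = 3.37e-05). The other was Dio3, the deiodinase that inactivates T3, which held 59 reads in wild type on PBS, 1 read in wild type on T3, and 28 and 15 in the knockout. Its neighbour on the opposite strand, Dio3os, fell in both genotypes, with 1252 and 3 reads in wild type and 414 and 116 in the knockout.

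Of 19 receptors, partners and coregulators, 1 was higher and 1 lower, near the share over all genes. Rxrg, a retinoid X receptor, rose in the knockout only by the call, from 8.96 ± 1.27 to 14.0 ± 1.1 CPM, with a difference of 0.84 (SE 0.23). Ncoa1, a coactivator, fell there from 25.4 ± 3.1 to 19.9 ± 0.5 CPM (SD, n = 4), with a difference of -0.57 (SE 0.17). Each call was lost without 1 library, knockout PBS replicate 3 for Rxrg and wild-type T3 replicate 3 for Ncoa1 (adjusted p = 0.0531 and 0.0536).

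Fat synthesis genes had calls in 1 direction only. Of 25 lipogenic genes 8 were lower and none higher, with a median difference of -0.72. In wild type 13 rose with T3 and in the knockout 1 did, at medians of 0.91 and -0.12. The 8 were Thrsp, Me1, Elovl6, Pnpla3, Fasn, Acaca, Mid1ip1 and Taldo1, which run from the regulators Thrsp and Mid1ip1 through fatty acid synthase, acetyl-CoA carboxylase and malic enzyme to an elongase.

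Thrsp (Spot 14) was at 83.4, 36.4, 47.1 and 61.2 CPM in wild type on PBS and at 1284, 1922, 2084 and 231 CPM on T3, with the fourth T3 animal well below the other 3. The knockout had 119, 58.2, 185 and 355 CPM on PBS and 138, 83.2, 218 and 121 CPM on T3, and its groups overlapped. The genotype difference was -4.95 (SE 0.79, adjusted p = 8.12e-05). Me1, malic enzyme, rose from 106 to 180 CPM to 924 to 1495 CPM in wild type, against 184 to 598 CPM and 262 to 649 CPM in the knockout, a difference of -2.83 (SE 0.46). Fasn rose from 407 ± 145 to 2044 ± 762 CPM in wild type, and was at 960 ± 616 and 1031 ± 392 CPM in the knockout (SD, n = 4). Its difference of -2.22 (SE 0.63) was not called without knockout PBS replicate 4 or wild-type T3 replicate 3 (adjusted p up to 0.0612), nor that of Taldo1 without knockout PBS replicate 4 (adjusted p = 0.0532).

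Cholesterol genes moved in the same direction with fewer calls. Of 24, 17 rose in wild type, and the median response was 1.2 there and 0.15 in the knockout. A called difference was found in 4, all lower, against 6.64% lower over all genes (median over the list -1.02). Hsd17b7, a late enzyme of the pathway, rose in wild type by 1.46 (SE 0.31), had a response of -0.05 in the knockout (SE 0.30) and differed by -1.51 (SE 0.43, adjusted p = 0.0198). The call of Cyp51, another enzyme of it, was lost without any 1 of 12 libraries (adjusted p up to 0.101).

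Fat oxidation leaned the other way, with 23 of 28 differences positive (median 0.37, lowest -2.85). Called differences were fewer: 4 were higher and none lower, against 5.58% higher and 6.64% lower over all genes. In wild type 7 fell with T3 and 2 rose, and the median response was -0.38 there and 0.07 in the knockout. The medium-chain dehydrogenase Acadm was at 699, 655, 696 and 494 CPM in wild type on PBS and 191, 171, 181 and 194 CPM on T3, whereas the knockout had 434, 558, 443 and 439 CPM and then 427, 318, 393 and 392 CPM, a difference of 1.49 (SE 0.30). The thiolase Acaa2, the isomerase Eci1 and the fatty acid hydroxylase Cyp4a10 were the other 3, at 1.00 (SE 0.28), 1.11 (SE 0.29) and 2.51 (SE 0.67). Cpt1a, the gate for fatty acid entry into mitochondria, had a response of 0.10 in wild type and 0.25 in the knockout, and a difference of 0.16 (95% interval -0.73 to 1.05).

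Lipoprotein genes had calls on both sides, 5 lower and 3 higher of 29, against 6.64% lower and 5.58% higher over all genes. Apoa4, an apolipoprotein of triglyceride-rich particles, rose from 104, 48.3, 99.4 and 58.9 CPM to 1543, 977, 1362 and 1507 CPM in wild type. In the knockout it was at 221, 277, 94.1 and 262 CPM on PBS and 228, 294, 399 and 339 CPM on T3, and those groups overlapped. Its difference was -3.56 (SE 0.62, adjusted p = 0.000258). Mttp, which loads lipid onto apolipoprotein B, Apof, and Scarb1, the HDL receptor, were also lower, at -1.11, -1.17 and -0.81. Vldlr, Apoa2 and Apoc1 were higher, at 2.04 (SE 0.45), 1.43 (SE 0.34) and 1.02 (SE 0.31), and each of these fell in wild type only by the call. Without any 1 of 8 libraries the call for Apoc1 was lost (adjusted p up to 0.0809).

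Among 21 bile acid genes 2 were lower and 1 higher, near the 12.2% called over all genes. Cyp27a1, which starts the acidic pathway of bile acid synthesis, rose from 242 ± 45 to 787 ± 161 CPM in wild type against 409 ± 51 and 470 ± 40 CPM in the knockout (SD, n = 4), a difference of -1.5 (SE 0.39). Cyp7b1, the next hydroxylase, differed by -1.32 (SE 0.42), a call lost without any 1 of 10 libraries (adjusted p up to 0.0750). Abcc3, an export pump for bile acids and glucuronides, fell from 693, 803, 613 and 389 CPM to 58.2, 46.2, 38.6 and 44.8 CPM in wild type, and was at 507, 456, 470 and 506 CPM and then 472, 373, 557 and 570 CPM in the knockout. Its genotype difference was 3.76 (SE 0.41, adjusted p = 2.86e-07).

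**Figure D3:**
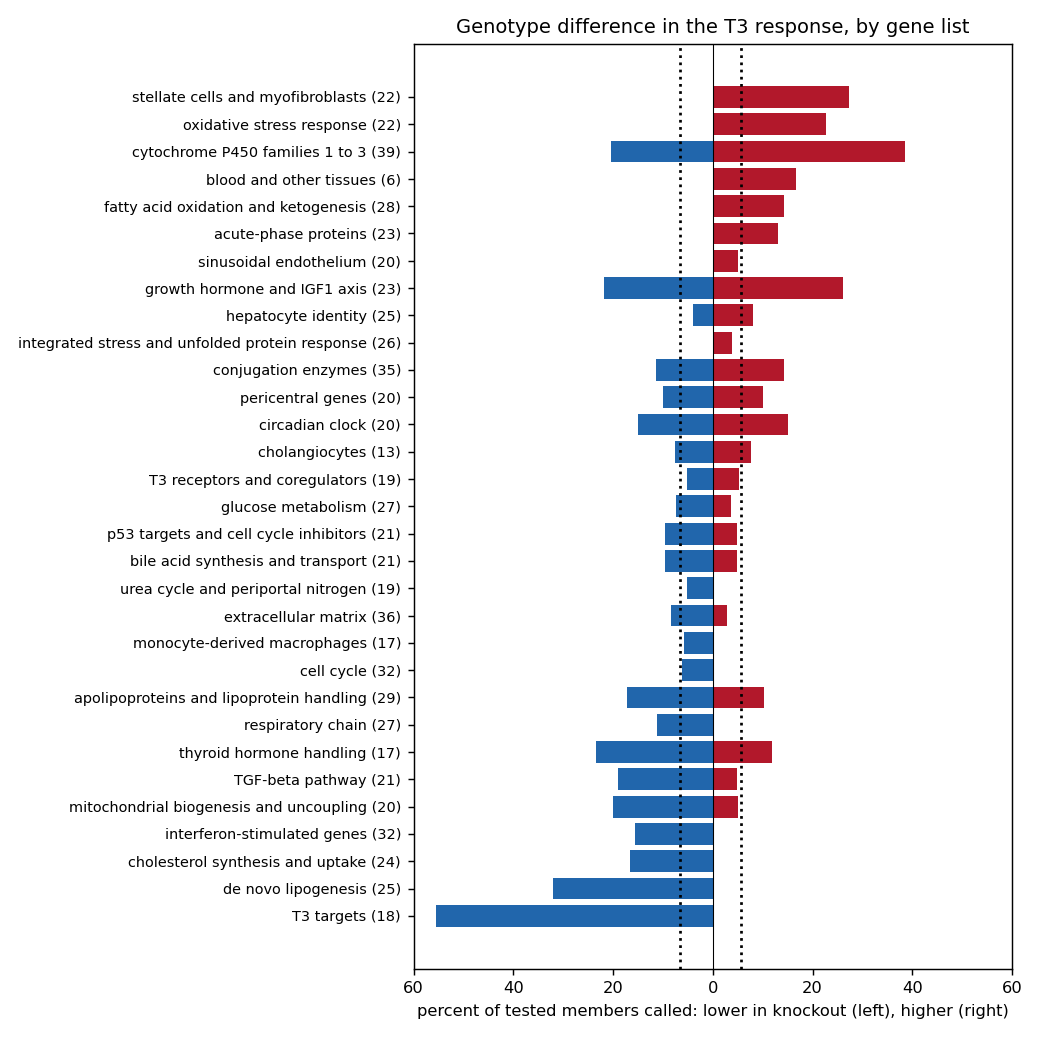
Percent of the tested members of each gene list (number in brackets) with a called genotype difference on oil, lower to the left in blue and higher to the right in red; dotted lines give the shares over all genes, 6.64% lower and 5.58% higher, and lists with no call are left out. T3 targets reach furthest to the left and cytochrome P450 genes furthest to the right, with calls on both sides for P450, growth hormone, thyroid hormone handling and clock genes.

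The cytochrome P450 families 1 to 3, which oxidise drugs, steroids and fatty acids, held 23 called genes of 39 tested, 15 higher and 8 lower. Near-identical members of the Cyp2b, Cyp2c and Cyp3a families can exchange reads, so values of single members are uncertain. The higher ones were mostly Cyp2b, Cyp2c and Cyp2d genes that T3 brought down in wild type. Cyp2b9 was at 711, 598, 631 and 424 CPM in wild type on PBS and at 3.30, 1.51, 0.138 and 0 CPM on T3, and in the knockout at 718, 787, 698 and 794 CPM and then 809, 702, 725 and 711 CPM. The 12 other libraries lay far above those 4, and the difference was 8.88 (SE 1.15, adjusted p = 4.53e-06). Its neighbour Cyp2b13 had the same fall in wild type, from 512, 420, 439 and 185 CPM to 0.613, 0.654, 0 and 0.132 CPM. In the knockout Cyp2b13 was at 451, 507, 442 and 559 CPM and then at 199, 160, 137 and 176 CPM, which did not overlap, though the knockout's response of -1.54 was not called (SE 0.62, adjusted p = 0.0804).

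The 250 bases before the start sites of these neighbours on chromosome 7 are shown because both genes had the same response in wild type and because they show how alike the copies are. Sequences are from RefSeq (GRCm38.p6, forward strand, 5′ to 3′), and capitals mark AGGTCA, the hexamer that nuclear receptors such as TRβ bind, usually in pairs.
Cyp2b9, chr7:26173159-26173408: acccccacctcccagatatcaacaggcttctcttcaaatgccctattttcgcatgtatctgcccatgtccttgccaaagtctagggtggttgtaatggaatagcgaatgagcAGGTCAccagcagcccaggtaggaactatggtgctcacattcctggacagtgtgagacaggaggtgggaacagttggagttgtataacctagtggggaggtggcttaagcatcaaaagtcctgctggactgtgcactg
Cyp2b13, chr7:26061245-26061494: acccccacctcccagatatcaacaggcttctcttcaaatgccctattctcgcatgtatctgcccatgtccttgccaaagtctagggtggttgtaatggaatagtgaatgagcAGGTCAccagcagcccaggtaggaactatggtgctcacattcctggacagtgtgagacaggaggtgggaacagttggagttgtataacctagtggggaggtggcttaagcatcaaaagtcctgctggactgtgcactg
The windows were identical at 248 of 250 bases (99.2%), and the substitutions from Cyp2b9 to Cyp2b13 were T48C and C104T, counted from 1 at the 5′ end. The hexamer was searched as AGGTCA on both strands in 250-base windows of 11347 tested genes that RefSeq's table holds. It was found in 13.6% of them and in 15.8% of all 27025 genes of that table. The share was 15.9% in 615 genes that rose in wild type with a lower difference. It was 12.6% in 554 that fell in wild type with a higher one. Such a match describes the letters only.

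Other P450 genes with a fall in wild type were Cyp2c54, Cyp2c50, Cyp2c37 and Cyp2c67. Cyp2c54 was at 461, 255, 312 and 127 CPM in wild type on PBS, at 0.566, 0.503, 0.092 and 0 CPM on T3, and at 76.2 to 222 CPM over the 8 knockout libraries, with the largest fitted positive difference of the named genes, 9.85 (SE 1.17). Cyp2c50 fell from 729 ± 313 to 3.84 ± 2.36 CPM in wild type and was at 961 ± 130 and 922 ± 165 CPM in the knockout (SD, n = 4). Cyp2e1, the pericentral enzyme that oxidises ethanol and activates CCl4, fell from 7160, 11370, 8228 and 3795 CPM to 1171, 1293, 933 and 889 CPM in wild type and was at 4793, 6032, 4377 and 4757 CPM and 4508, 3799, 3860 and 4353 CPM in the knockout. Its difference was 2.56 (SE 0.60, adjusted p = 0.00501). Cyp3a11, the main drug-oxidising Cyp3a enzyme, differed by 2.71 (SE 0.78), a call lost without wild-type PBS replicate 2 or wild-type T3 replicate 3 (adjusted p up to 0.0539).

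The 8 lower P450 genes included 5 of the Cyp3a family that T3 switched on. Cyp3a44 rose from 0.225, 0.768, 0.379 and 0.523 CPM to 822, 1238, 1256 and 960.4 CPM in wild type and from 0.451, 1.17, 0.528 and 1.12 CPM to 75.6, 23.8, 38.1 and 61.3 CPM in the knockout. Both rises were called, 11.13 (SE 0.65) and 5.95 (SE 0.54), and the difference was -5.18 (SE 0.77). Cyp3a16 rose to 437, 498, 470 and 408 CPM in wild type and to 3.92, 3.02, 1.38 and 1.99 CPM in the knockout, from at most 0.591 CPM in any PBS library. Cyp3a41a had 2 reads in the 4 wild-type PBS libraries, 8079 on T3, and 356 and 978 in the knockout, with 19.3 CPM in 1 knockout PBS animal.

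Uox, the urate oxidase of peroxisomes, fell in both genotypes, from 3484 ± 343 to 293 ± 51 CPM and from 2520 ± 170 to 1443 ± 282 CPM (SD, n = 4). The fall was larger in wild type, and the genotype difference was 2.77 (adjusted p = 2.4e-05).

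Conjugating enzymes had 5 higher and 4 lower of 35, against 5.58% higher and 6.64% lower over all genes. Among the higher were Ugt1a9, a glucuronidating enzyme (5.37, SE 0.82), Sult3a1 (8.04, SE 1.73), Gstt2 and Gsta2. Sult3a1 had 5 reads in wild type on T3, and its libraries ran from 0.575 to 52.1 CPM in wild type on PBS. Lower were Sult5a1 (-5.42, SE 1.07, with 8 reads in wild type on PBS), Sult1d1 (-1.64, SE 0.39), Ugt1a1 and Sult2a1. Sult2a1, a steroid sulfotransferase, was at 372 to 454 CPM and 301 to 475 CPM in the knockout on PBS and T3, and at 1.69, 1.86, 0.0842 and 0.575 CPM and then 120, 3.27, 2.07 and 0.483 CPM in wild type. Its called difference of -5.04 rests on wild-type T3 replicate 1: without that library it was -1.02 (adjusted p = 0.635), and the call was also lost without wild-type PBS replicate 3 or 4. The calls of Gsta2 and Gstt2 were lost without any 1 of 12 and of 2 libraries (adjusted p up to 0.0849 and 0.0687). Sult family members are near copies, and their values are uncertain.

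The growth hormone axis, which sets the sex pattern of liver genes, had 6 higher and 5 lower of 23. Stat5a, a transcription factor of that axis, rose from 9.28, 9.76, 11.2 and 12.6 CPM to 82.5, 82.6, 72.7 and 80.8 CPM in wild type and from 17.8, 17.1, 19.9 and 19.9 CPM to 32.6, 38.2, 27.8 and 42.2 CPM in the knockout. The 4 groups did not overlap, and the difference was -1.98 (SE 0.20, adjusted p = 4.92e-08); Stat5a overlaps Stat3 on the opposite strand. Stat5b, Igfbp4, the repressor Cux2 and the elongase Elovl3 were the other lower genes, at -0.82, -1.18, -3.12 and -6.12.

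Mup3, a major urinary protein, was higher, and its response ran in opposite directions: 219, 165, 175 and 74.5 CPM in wild type on PBS and 60.5, 106, 70.4 and 54.2 CPM on T3, against 404, 481, 608 and 588 CPM and then 1703, 2108, 1836 and 1676 CPM in the knockout. The difference was 2.94 (SE 0.55), with called responses of -1.12 (SE 0.39) and 1.82 (SE 0.39). Mup20, Socs2, a feedback inhibitor of growth hormone signalling, and Igfbp3, a carrier of IGF1, were higher by 2.85, 2.10 and 1.94. Mup16 had a lower genotype difference where Mup3 had a higher one. It rose by the call in both genotypes, with 0 and 650 reads in wild type and 25 and 181 in the knockout. Mup21 had 3069 and 2 reads in wild type and 581 and 253 in the knockout. Reads of Mup genes can be exchanged between copies. Igf1 itself had no called response in either genotype, and its difference was 0.00 (95% interval -0.66 to 0.66).

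Mitochondrial and glucose genes are set against the 12.2% called over all genes, 5.58% higher and 6.64% lower. In the respiratory chain 3 of 27 were lower, namely cytochrome c (Cycs, -0.84, SE 0.16), Cox5a (-0.81, SE 0.19) and Sdhd (-0.60, SE 0.20), in a list whose median response was 0.15 in wild type, where 10 rose, and 0.04 in the knockout. The call for Sdhd was lost without any 1 of 11 libraries (adjusted p up to 0.108). Of 20 biogenesis and uncoupling genes 4 were lower and 1 higher: beside Gpd2, the nuclear receptor Esrrg rose from 5.49 ± 2.25 to 27.4 ± 4.3 CPM in wild type and was at 6.27 ± 1.84 and 6.25 ± 1.95 CPM in the knockout (SD, n = 4). Ucp2, Slc25a5 and Polg each lost the call without any 1 of 11, 7 and 14 libraries.

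Ppp1r3c, which directs protein phosphatase 1 to glycogen, fell from 418, 287, 299 and 238 CPM to 8.59, 3.97, 3.27 and 4.17 CPM in wild type and was at 344, 109, 269 and 296 CPM and then 117, 102, 110 and 229 CPM in the knockout, with a difference of 5.09 (SE 0.62). The other called glucose genes, 2 of 27, were Pfkfb3, which makes an activator of glycolysis (-1.75, SE 0.41), and Foxo1 (-0.71, SE 0.21), whose call was lost without any 1 of 4 libraries (adjusted p up to 0.0562). The gluconeogenic genes Pck1 and G6pc varied widely between animals, with differences of -0.30 (95% interval -2.12 to 1.51) and -0.06 (95% interval -2.23 to 2.12). Of 19 urea cycle genes only arginase (Arg1) had a call, at -1.11 (SE 0.31): 1355 to 1742 CPM on PBS and 1590 to 2665 CPM on T3 in wild type, 1692 to 2038 CPM and 1076 to 1205 CPM in the knockout.

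Metallothioneins, small metal-binding proteins, had the largest differences of the 22 stress genes, of which 5 were higher and none lower. Mt1 was at 311, 158, 190 and 60.5 CPM in wild type on PBS and 8.68, 5.83, 4.88 and 8.21 CPM on T3. In the knockout it was at 34.8, 46, 8.44 and 42.7 CPM on PBS and 173, 65.0, 114 and 71.2 CPM on T3, so that T3 animals lay below all PBS animals in wild type and above all of them in the knockout. The difference was 6.38 (SE 1.08, adjusted p = 0.000179), the wild-type fall of -4.70 was called (SE 0.82) and the knockout's 1.68 was not (SE 0.72, adjusted p = 0.102). Mt2, which overlaps Gm45774 on the opposite strand, differed by 7.14 (SE 1.15), from 211, 104, 136 and 42.9 CPM to 2.64, 2.77, 1.66 and 5.27 CPM in wild type and from 11.6, 27.6, 1.89 and 14.1 CPM to 96.2, 19.0, 51.7 and 27.2 CPM in the knockout. The carbonyl reductase Cbr3 (2.21, SE 0.59) and the superoxide dismutases Sod1 (0.74, SE 0.19) and Sod3 (0.68, SE 0.21) were the others, and the call of Sod3 was lost without any 1 of 9 libraries (adjusted p up to 0.103).

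Opposite responses were also seen in C8a, a subunit of the complement attack complex. It fell from 180, 146, 167 and 165 CPM to 8.64, 18.2, 16 and 32.7 CPM in wild type and rose from 86.6, 109, 100 and 63.6 CPM to 199, 179, 192 and 218 CPM in the knockout. The difference was 4.26 (SE 0.55, adjusted p = 4.55e-06). Cox19, a copper chaperone of mitochondria, Bok, a BCL2 relative, and Cables1 did the same with differences of 1.29, 1.60 and 2.91. Atl2, a protein that shapes the endoplasmic reticulum, rose from 119, 103, 145 and 110 CPM to 250, 223, 264 and 191 CPM in wild type and fell from 130, 143, 134 and 141 CPM to 112, 78.0, 96.6 and 104 CPM in the knockout. Coq10b, a coenzyme Q binding protein, rose from 12.4, 10.5, 11.5 and 11.8 CPM to 35.5, 35.2, 36.6 and 36.4 CPM in wild type and fell from 32.6, 28.8, 27.1 and 21.5 CPM to 12.7, 19.4, 14.3 and 17.9 CPM in the knockout, a difference of -2.41 (SE 0.32).

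Genes with a call for T3 in the knockout alone were led by falls of Megf9, Ankib1, Abcb1a and Zfp91. Megf9, a membrane protein with EGF-like repeats, was at 59.9, 65.8, 102 and 64.6 CPM in the knockout on PBS and 39.8, 20.5, 35.7 and 32.4 CPM on T3, and at 60.1, 49.6, 74.7 and 50.9 CPM and then 114, 80.6, 90.8 and 52.2 CPM in wild type. The knockout groups did not overlap, the wild-type ones did, and the difference was -1.71 (SE 0.31). Rises in the knockout alone included Mafk, a small Maf factor (1.14, SE 0.26), Ap5z1 (0.81, SE 0.19), the collagen prolyl hydroxylase P3h3 (1.24, SE 0.30) and Il1rn, the interleukin 1 receptor antagonist (3.19, SE 0.77).

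Stellate cell and myofibroblast genes were higher in 6 of 22 tests and lower in none, with a median difference of 0.58. Tagln, an actin-binding protein of contractile cells, was at 5.62, 5.70, 6.06 and 8.79 CPM in wild type on PBS, 3.92, 2.72, 4.60 and 6.45 CPM on T3, and in the knockout at 4.41, 4.07, 3.39 and 2.96 CPM and then 10.4, 11.5, 8.08 and 7.35 CPM. It rose by the call in the knockout (1.33, SE 0.37) and not in wild type (-0.56, SE 0.36), with a difference of 1.89 (SE 0.52, adjusted p = 0.0156). Lgals1, Myl9 and Pdgfrb, a growth factor receptor of these cells, were higher by 2.42, 2.16 and 0.89, while the calls of Acta2, smooth muscle actin, and Ngfr were lost without any 1 of 7 and of 10 libraries. The summed stellate markers were at 156 to 179 CPM in wild type on PBS, 100 to 145 CPM on T3, 131 to 155 CPM in the knockout on PBS and 156 to 184 CPM on T3. Summed blood markers were at 346 to 740 CPM in the knockout on T3 and 123 to 372 CPM in wild type on T3. The part of either in the result was not tested.

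**Figure D4:**
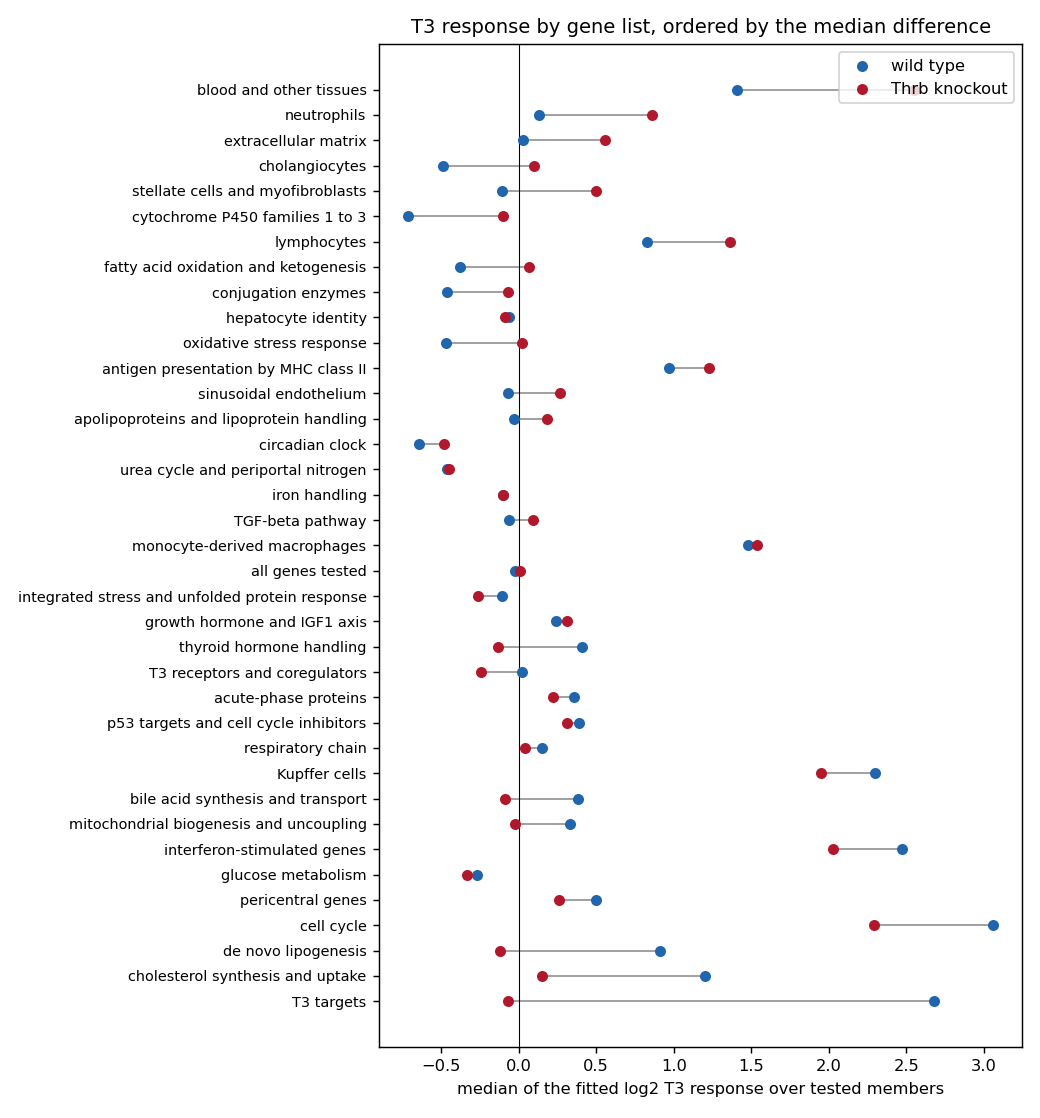
Median fitted log2 T3 response over the tested members of each list in wild type (blue) and Thrb knockout (red), ordered by the median genotype difference; 4 libraries per group. The genotypes lie far apart for T3 targets (2.68 and -0.07) and cholesterol synthesis (1.2 and 0.15), and near each other at high values for Kupffer cell (2.30 and 1.95) and interferon-stimulated genes (2.47 and 2.03).

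Kupffer cell, cell cycle and interferon-stimulated genes mostly rose with T3 in both genotypes, whereas 1 of 10 neutrophil genes rose in each. In wild type and knockout, rises were also called in 12 and 10 of 17 genes of monocyte-derived macrophages. They were called in 10 and 13 of 14 MHC class II genes and in 8 and 15 of 23 lymphocyte genes. Of these lists, 1 of 17, 0 of 14 and 0 of 23 had a called genotype difference, against 12.2% called over all genes. A missing call does not show equal responses. The median differences were 0.02, 0.25 and 0.42, and 9, 11 and 16 genes had a positive one. Lymphocyte genes ran from -1.77 to 2.19, and their summed markers were at 3.24 to 22.0 CPM over the oil libraries. Kupffer cell genes, which mark the liver's resident macrophages, rose in 16 of 16 tests in wild type and 15 of 16 in the knockout, and none of the 16 had a called genotype difference: edgeR and DESeq2 each called 0, and 0 had an unadjusted edgeR p under 0.05. Timd4, a receptor of resident Kupffer cells, was at 5.23, 2.85, 2.86 and 2.20 CPM in wild type on PBS and 22.5, 20.7, 16.2 and 22.4 CPM on T3, and at 2.81, 3.45, 2.99 and 2.66 CPM and then 16.6, 13.8, 23.1 and 19.8 CPM in the knockout. Its difference was -0.02 (95% interval -0.84 to 0.79), which leaves room for an unequal response of up to that size. Of the 16 Kupffer cell genes, 14 had a negative difference (median -0.23, lowest -1.04). Clec4f, a Kupffer cell lectin, had -0.15 (95% interval -1.01 to 0.71), and the summed Kupffer markers reached 643 to 1023 CPM in wild type and 476 to 693 CPM in the knockout on T3, from 76.0 to 162 CPM and 91.0 to 131 CPM.

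Cell cycle genes rose in 26 of 32 tests in wild type and 25 of 32 in the knockout, with medians of 3.06 and 2.29. Only Ccnd1 and Rrm2 were called lower. Ccnd1, the cyclin that starts the cycle, rose from 18.1, 17.1, 12.5 and 26.7 CPM to 435, 218, 197 and 309 CPM in wild type and from 29.6, 20.8, 38 and 20.4 CPM to 92, 79.3, 104 and 106 CPM in the knockout, a difference of -2.15 (SE 0.50, adjusted p = 0.00425). Rrm2, a subunit of ribonucleotide reductase, differed by -2.55 (SE 0.49).

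Interferon-stimulated genes rose in 32 of 32 tests in each genotype. Of these, 5 had a called difference, each a lower rise in the knockout, against 6.64% lower over all genes. A negative difference was seen in 27 and a positive one in 5 (median -0.31). Gbp3, a guanylate-binding protein, rose from 2.99 ± 0.75 to 271 ± 24 CPM in wild type and from 5.80 ± 2.63 to 53.8 ± 6.9 CPM in the knockout (SD, n = 4), a difference of -3.28 (SE 0.52). Gbp2, Ifih1, Bst2 and Cmpk2 differed by -1.48, -1.36, -0.94 and -1.19, and the call of Cmpk2 was lost without any 1 of 3 libraries (adjusted p up to 0.0619). Ifi27l2a went from 2.7, 2.58, 2.36 and 2.41 CPM to 20.1, 16.3, 19.0 and 31.3 CPM in wild type and from 3.11, 1.11, 3.08 and 2.36 CPM to 16.2, 19.5, 22.6 and 18.2 CPM in the knockout, a difference of -0.14 (95% interval -0.82 to 0.53). Over all genes, 1563 were called for T3 in both genotypes in 1 direction, and 1417 of these had no called genotype difference.

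Clock genes had 3 calls on each side of 20, and they varied widely within groups. Nr1d1 (REV-ERBα), a repressor of the clock, was at 29.6, 203, 117 and 47.5 CPM in wild type on PBS, 18.0, 61.2, 22.8 and 26.7 CPM on T3, 7.67, 93.6, 27.4 and 11.2 CPM in the knockout on PBS and 128, 130, 123 and 91.3 CPM on T3. Its difference of 3.38 (SE 1.02, adjusted p = 0.0276) was lost without any 1 of 7 libraries (adjusted p up to 0.0903). Bhlhe40 and Bhlhe41, which also repress the clock, differed by -2.36 (SE 0.59) and 4.57 (SE 1.08), while the calls of Cry1, Cry2 and Usp2 were lost without any 1 of 10, 8 and 8 libraries. The hour at which livers were taken is not in the labels.

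TGF-β pathway genes were lower in 4 of 21 tests and higher in 1. The receptors Tgfbr2, Tgfbr3 and Tgfbr1 and the inhibitor Skil differed by -1.18 (SE 0.31), -0.92 (SE 0.23), -0.94 (SE 0.23) and -1.68 (SE 0.40), and Inhbe, an activin chain of hepatocytes, by 2.90 (SE 0.81). Of 36 matrix genes 3 were lower and 1 higher in the test, near the 12.2% called over all genes. A positive difference was seen in 31 (median 0.69). In wild type 5 rose and 5 fell with T3, and in the knockout 12 rose. The lower genes Col15a1, Col12a1 and Fn1 went against most of the list, and the higher one was Col14a1. The calls of Fn1 and Col14a1 were lost without any 1 of 9 libraries and without wild-type PBS replicate 4 (adjusted p up to 0.0824 and 0.0522). Col15a1 and Col12a1 rose in wild type only by the call, from 5.30 ± 1.02 to 44.2 ± 5.4 CPM and from 3.13 ± 0.96 to 25.5 ± 2.5 CPM, against 18.9 ± 5.8 and 21.5 ± 4.0 CPM and 2.92 ± 1.17 and 4.18 ± 0.64 CPM in the knockout (SD, n = 4).

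Without hormone a difference between the genotypes was called in 84 genes, or 0.538% of those tested (0.404% higher and 0.135% lower in the knockout). The count ran from 46 without wild-type PBS replicate 2 to 169 with the oil libraries alone. A gene without a call can still differ: the log2 of -0.72 for Thrb on PBS did not pass. The PBS groups also enter the genotype difference, so the following overlap is partly built in. Of the 84 genes, 73 had a genotype difference. Of 63 that were higher in the knockout on PBS, 55 rose with T3 in wild type and 54 had a lower difference, with Gpd2, Dio1, Stim2 and Slc25a45, a mitochondrial carrier, among them. Of 21 lower on PBS, 19 fell with T3 in wild type and 17 had a higher difference, among them Adam11, a membrane protein of the ADAM family. It was at 69.2, 61.4, 50.7 and 36.8 CPM in wild type on PBS and 0.849, 0.654, 1.43 and 0.659 CPM on T3, with 17.5, 14.0, 14.7 and 18.3 CPM and 9.91, 17, 10.1 and 6.38 CPM in the knockout. On T3 the genotypes differed in 16.3% of all genes tested, 7.14% higher and 9.21% lower. Of the 1906 genes, 826 were lower and 663 higher in the knockout on T3 with no call on PBS. Of the 508 tested genes of chromosome 14, which carries Thrb, 1 differed on PBS (Pdhb).

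The same genotype difference was taken in the 16 CCl4 animals, which share no library with the oil groups but share the fit's estimate of spread. There 22.7% of all genes tested had one, 10.3% higher and 12.4% lower (1603 and 1935 genes, or 2610 and 1242 when scaled by total counts alone). Of the 1906 genes called on oil, 1443 (75.7%) had the same sign on CCl4, 630 (33.1% of those on oil, 17.8% of those on CCl4) were called the same way and 35 the opposite way. The share called the same way was 43.4% of the 1035 lower genes and 20.8% of the 871 higher ones. Dio1 differed by -7.14 on CCl4 (SE 0.46), Gpd2 by -3.14 (SE 0.27), Mt2 by 7.63 (SE 1.14) and C8a by 4.07 (SE 0.55), each close to its value on oil.

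A test of CCl4 minus oil called 1229 genes, or 7.88% of all genes tested (3.49% higher and 4.39% lower), and 359 of the 1906. That count ranged from 502 to 2936 when single libraries were left out. Many of the P450 genes were among the 359: Cyp2b9 differed by 8.88 on oil and 3.23 on CCl4, Cyp2c50 by 7.51 and -0.37 and Cyp2e1 by 2.56 and -1.11. The difference of Cyp2c69 turned from 4.41 (SE 0.81) to -3.50 (SE 0.83), and that of P3h1, a collagen prolyl hydroxylase, from -1.27 (SE 0.20) to 0.66 (SE 0.20). Counts of calls in lists changed as well. With CCl4, 27 of 27 respiratory chain genes and 18 of 25 lipogenic genes were lower, against 3 and 8 on oil. T3 targets had 12 of 18 against 10. The test of CCl4 minus oil itself called 13 of the 27, 2 of the 25 and 2 of the 18. A changed count of calls alone does not show a changed difference. Scaling by total counts alone shifted the median difference of all genes on CCl4 to 0.30, from 0.05, and that on oil to -0.06, from 0.02.

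**Figure D5:**
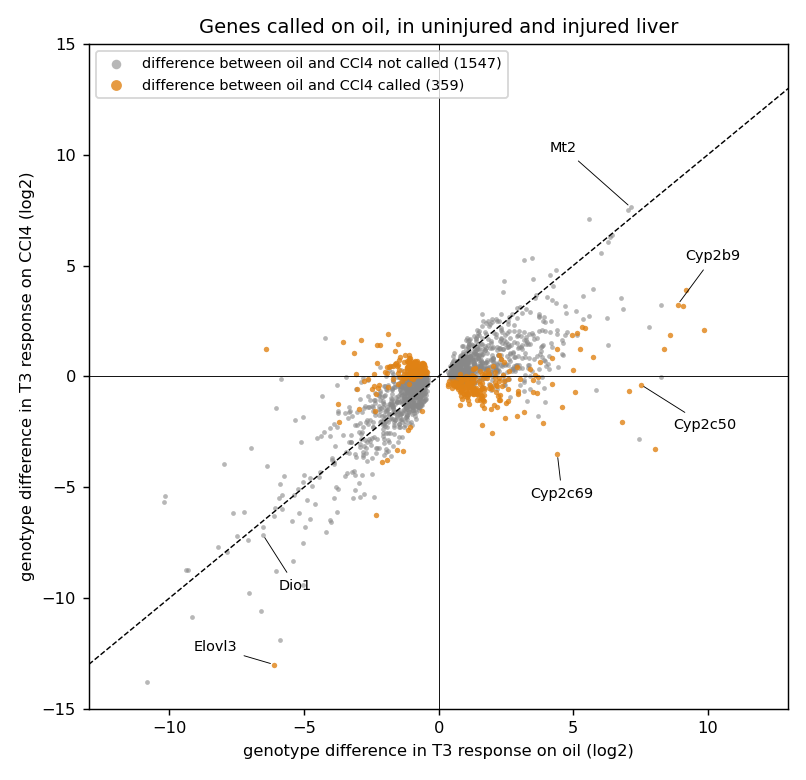
Genotype difference in the T3 response on oil (x axis) and on CCl4 (y axis), log2, for the 1906 genes called on oil; orange points are the 359 whose difference changed between oil and CCl4 by the test, and the dashed line marks equality. Dio1 and Mt2 lie near the line, while Cyp2b9, Cyp2c50 and Cyp2c69 lie far below it.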

How the data were processed

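Liver RNA with a poly(A) tail was sequenced from 32 mice. The deposited data are a single table of read counts per gene, which the authors left unnormalized. In the submitters' processing notes stand FastQC 0.11.5, Trim Galore, cutadapt, STAR 2.7.9a and the build GRCm38, with no role stated. The counter and its strand setting were not given in the sources used here. Per the labels' protocols libraries came from either of 2 TruSeq kits, the unstranded v2 or the stranded one; which animal had which is not stated, so kit and group cannot be told apart. Each library has its own animal number.

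GENCODE vM21 gave symbols for 52489 of 52636 genes. Counts were fitted with edgeR 4.0.16 (R 4.3.3, limma 3.58.1): TMM factors, filterByExpr (minimum count 10, minimum total 15), 1 mean for each of 8 groups over all 32 libraries, quasi-likelihood F test, Benjamini-Hochberg adjustment over the 15599 genes kept, and a call at an adjusted p of 0.05. SE is the log2 difference divided by the root of F, and intervals are at 95%. CPM were computed from the counts with TMM factors; counting error is small beside the spread between animals except for genes of few reads. DESeq2 1.42.0, other factors and filters, the 16 oil libraries alone, a replicate block and leaving out each library were alternatives. Equal replicate numbers belong to different animals and did not pair samples.

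Named genes were taken by rule: Thrb and Thra, the 8 largest differences in each direction and the 6 smallest adjusted p among genes reaching 5 CPM, up to 4 called genes of each of 36 lists plus up to 3 called against the majority, up to 4 of each response class, 6 shared and 4 from the test of CCl4 minus oil, and all genes of a count of 5 or fewer. Hr, Fasn, Acaca, Mid1ip1, Taldo1, Acta2, Ngfr, Cyp3a11, Cyp2c37, Igfbp3, Mup20, Cpt1a, Igf1, G6pc and Pck1 were chosen after their values were seen. Members and lists were chosen with earlier results of these data known. Some called genes are not reported here.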

Additional observations from a re-analysis of the deposited data

Results flagged for a closer look

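Among 44 genes whose libraries were screened in 176 groups of 4, a single library stood far from the other 3 in 11 (judged by the gap to the nearest library over the range of the 4; chance gives about 1 in 20). In wild type on T3 these were Thrb in replicate 3 (60.6 against 43.2 to 44.3 CPM, gap ratio 0.939), Dnah11 in replicate 4 (97.2 CPM, 0.897), Sult2a1 in replicate 1 (120 against 0.483 to 3.27 CPM, 0.977) and Ppp1r3c in replicate 1 (8.59 CPM, 0.830). In the knockout on T3 they were Slc37a3 in replicate 2 (21.7 CPM, 0.889) and Ppp1r3c in replicate 4 (229 CPM, 0.887). Among knockout PBS animals they were Acadm in replicate 2 (558 CPM, 0.933), P3h1 in replicate 2 (23.1 CPM, 0.973), Megf9 in replicate 3 (102 CPM, 0.859) and Arg1 in replicate 4 (2040 CPM, 0.893). In wild type on PBS it was Tagln in replicate 4 (8.79 CPM, 0.862). Of these, only the Sult2a1 value decides a call.

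By the call, the T3 response on oil differed between the genotypes in 1906 genes. The test of CCl4 minus oil called 1229 of all genes tested (7.88%), and 359 of the 1906. Among the screened genes, the change from oil to CCl4 was downward, on the log2 scale, for Cyp2c69 (-7.92), Cyp2c54 (-7.74), Cyp2b13 (-6.73), Cyp2b9 (-5.65), Cyp2e1 (-3.67), Abcc3 (-3.13), Adam11 (-3.11), Hcfc1r1 (-2.06) and Acadm (-1.68). It was upward for Bcl3 (2.51), Coq10b (1.98), P3h1 (1.93), Zfp687 (1.44) and Slc37a3 (0.84).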

How the results depend on the processing

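The genotype difference on oil was called in 1906 genes, and in 2259 with DESeq2, 1887 with its size factors, 1866 with a filter of 1 CPM in 4 libraries, 1396 with no filter, 2698 with the 16 oil libraries alone, 1635 with total counts alone (37.7% of them higher, against 45.7%) and 1413 to 1913 when single libraries were left out. A log2 minimum of 1 left 1137. Of 174 named genes with a call, 128 kept it under every alternative run and 46 lost it under at least 1. No named gene's difference changed sign past the threshold. The majority direction of calls turned in 4 fits: for the knockout's T3 response with the oil libraries alone (1815 rose and 1887 fell), for CCl4 minus oil with total counts alone, and for the genotype difference on CCl4 with total counts alone (2610 higher and 1242 lower) and without knockout PBS replicate 3 on CCl4 (2308 and 2287).

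The count on PBS, 84, was 144 with DESeq2, 169 with the oil libraries alone and 46 to 99 without single libraries (46 without wild-type PBS replicate 2, 55 without knockout PBS replicate 4). The count for CCl4 minus oil, 1229, was 2039 with DESeq2 and 502 to 2936 without single libraries. On CCl4 it was 573, 2782 and 502 without knockout PBS replicates 2, 3 and 4, 640 without knockout T3 replicate 3, 2936 without wild-type PBS replicate 4, and 809 and 812 without wild-type T3 replicates 3 and 4. On oil it was 787 without knockout PBS replicate 3, 790 and 788 without wild-type PBS replicates 1 and 2, and 665 without wild-type T3 replicate 4. The causes were not tested.

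Scaling by total counts moved the split of the genotype effect on T3 to 759 higher and 1836 lower, from 1113 and 1436, and that of CCl4 minus oil to 1232 and 392, from 544 and 685. With the replicate block 1888 genes were called. Equal numbers did not pair the samples: of 24 pairs 2 correlated above 0.1 (range -0.195 to 0.219), and in 7 of 24 the best match had the same number. Precision is limited by 4 animals per group, and by read number for genes with few reads.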
